A study of Mus musculus with 8 samples.

Results

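The Zfp genes are the mouse genes for zinc finger proteins whose symbol is Zfp and a number. All protein-coding Zfp genes with such a symbol in the RefSeq gene table of build GRCm38.p6 on chromosomes 1 to 19 were taken, except for genes not reported here. This gave 360 of the 21627 protein-coding genes on chromosomes 1 to 19 and X. A gene with another Zfp gene within 100 kb was called clustered (208 genes), and the other 152 were called single. Whole-genome bisulfite sequencing, which separates methylated from unmethylated cytosines, was applied to resting muscle stem cells from C57BL/6 males. These were sorted from limb muscle by absence of CD45, CD31 and Sca1 and presence of VCAM. One group held 4 young mice (4 months) and the other 4 old mice (22 months), with 1 animal per library, and no genetic change or treatment is given for either group.

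The deposited table gives each cytosine position 1 smoothed methylation level (mu) and 1 dispersion (phi, a measure of spread that the sources used here do not define) for each age group. Neither single animals nor read counts appear in it. Every level below is therefore a mean of the authors' group levels over positions, without an SD, and the depth per position is unknown. Differences between clustered and single genes are descriptions without a test, since genes are not replicates of a condition. At the genes that define the sorted cells, the less methylated of the gene's ends stood in young and old cells at 3.88% and 4.19% for Pax7 and at 10.9% and 10.5% for Myf5. Vcam1, the gene of the antigen selected for, stood at 12.0% and 10.4%, Itga7 at 10.3% and 10.7%, and Cdh15 higher, at 24.1% and 25.5%. The promoter of Cdh15 itself stood at 4.83% and 5.93%. Of the antigens excluded by the sort, the genes of CD45 (Ptprc), CD31 (Pecam1) and Sca1 (Ly6a) stood at 67.1%, 72.5% and 46.4% in young cells and at 68.6%, 72.9% and 51.7% in old cells.

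Most Zfp proteins bind DNA through arrays of C2H2 zinc fingers, small folds in which cysteines and histidines hold a zinc ion. Many also carry a KRAB domain, which recruits the corepressor Trim28 and with it the histone methyltransferase Setdb1, and such proteins silence retroelements and keep imprinted regions methylated. KRAB zinc finger genes multiplied by tandem duplication and often lie side by side. Other Zfp genes stand alone and encode conserved regulators of development, RNA and protein turnover. The clustered genes here lay mostly on chromosome 7 (73 genes), chromosome 17 (32 genes), chromosome 13 (23 genes) and chromosome 4 (14 genes). They formed 50 clusters, of which 15 had at least 5 genes and held 120 members.

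Promoter sequences show the contrast on which the results turn: the promoters of many Zfp genes hold few CpG dinucleotides, the sites at which mammalian DNA is methylated, and yet were almost unmethylated. The sequences below are the 250 bases before the RefSeq start of transcription in build GRCm38.p6, written 5′ to 3′ on the strand of the gene, with each CpG in capitals. Zfp367 and Zfp36 are single genes with many CpGs, and Zfp983 and Zfp445 are clustered genes with few.
Zfp367: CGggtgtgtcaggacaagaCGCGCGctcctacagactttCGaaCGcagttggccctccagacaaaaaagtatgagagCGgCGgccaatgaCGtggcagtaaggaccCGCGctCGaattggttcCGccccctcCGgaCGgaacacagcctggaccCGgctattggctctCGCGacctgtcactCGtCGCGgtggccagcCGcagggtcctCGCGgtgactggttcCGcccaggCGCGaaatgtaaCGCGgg
Zfp36: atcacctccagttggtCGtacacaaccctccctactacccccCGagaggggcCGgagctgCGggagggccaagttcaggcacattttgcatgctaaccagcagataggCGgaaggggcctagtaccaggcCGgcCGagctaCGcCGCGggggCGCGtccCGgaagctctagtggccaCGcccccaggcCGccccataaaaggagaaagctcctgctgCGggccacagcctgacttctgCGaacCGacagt
Zfp983: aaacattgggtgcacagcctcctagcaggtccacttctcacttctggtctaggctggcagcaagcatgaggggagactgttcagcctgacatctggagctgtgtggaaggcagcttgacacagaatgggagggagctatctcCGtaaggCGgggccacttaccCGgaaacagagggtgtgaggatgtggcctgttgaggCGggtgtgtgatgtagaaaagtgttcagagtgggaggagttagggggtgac
Zfp445: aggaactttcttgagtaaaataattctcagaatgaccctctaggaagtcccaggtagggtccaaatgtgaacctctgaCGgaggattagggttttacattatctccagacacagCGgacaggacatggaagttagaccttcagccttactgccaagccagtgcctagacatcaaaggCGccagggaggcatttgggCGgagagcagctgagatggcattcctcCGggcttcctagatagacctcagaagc
The Zfp367 stretch (chr13:64153200-64153449, minus strand) held 29 CpGs and was methylated at 1.65% in young and 1.59% in old cells. For Zfp36, which encodes tristetraprolin, a protein that marks mRNAs for decay, the stretch (chr7:28379229-28379478, minus strand) held 18 CpGs at 2.24% and 2.03%. The Zfp983 stretch (chr17:21650361-21650610, plus strand) held only 4 CpGs, with 5 listed positions, and stood at 1.57% and 1.71%. For Zfp445, whose protein helps to maintain imprints, the stretch (chr9:122866007-122866256, minus strand) held 5 CpGs at 4.58% and 3.73%. All 4 promoters were therefore below 5% at both ages, whether they held few or many CpGs.

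Other promoters with few CpGs were largely methylated, and 4 of them are shown for comparison: the clustered gene Zfp985 and the single genes Zfp957, Zfp57 and Zfp42.
Zfp985: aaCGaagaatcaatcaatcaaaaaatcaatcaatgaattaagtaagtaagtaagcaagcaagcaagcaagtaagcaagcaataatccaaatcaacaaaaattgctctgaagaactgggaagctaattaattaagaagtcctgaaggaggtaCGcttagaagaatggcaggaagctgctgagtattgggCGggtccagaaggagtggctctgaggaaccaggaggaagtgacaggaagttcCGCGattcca
Zfp957: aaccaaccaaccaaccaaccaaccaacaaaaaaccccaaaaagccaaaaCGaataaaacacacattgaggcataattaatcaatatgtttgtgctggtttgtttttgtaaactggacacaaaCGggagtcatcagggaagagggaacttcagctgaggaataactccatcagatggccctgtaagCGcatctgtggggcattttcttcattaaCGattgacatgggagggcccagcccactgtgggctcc
Zfp57: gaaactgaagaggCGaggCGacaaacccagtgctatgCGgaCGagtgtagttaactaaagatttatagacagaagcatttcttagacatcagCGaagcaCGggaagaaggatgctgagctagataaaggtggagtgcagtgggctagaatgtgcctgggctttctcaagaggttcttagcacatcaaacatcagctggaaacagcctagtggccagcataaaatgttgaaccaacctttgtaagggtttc
Zfp42: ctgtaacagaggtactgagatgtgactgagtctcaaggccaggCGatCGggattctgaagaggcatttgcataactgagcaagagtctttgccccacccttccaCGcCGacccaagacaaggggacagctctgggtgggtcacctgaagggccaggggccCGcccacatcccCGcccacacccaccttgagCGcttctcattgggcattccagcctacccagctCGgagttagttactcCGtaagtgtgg
Zfp985 (chr4:147553027-147553276, plus strand) held 5 CpGs at 65.7% in young and 65.6% in old cells. Zfp957 (chr14:79247368-79247617, minus strand) held 4 CpGs at 90.2% and 92.2%. The stretch of Zfp57, whose protein protects imprints in the early embryo, lay at chr17:37000913-37001162 on the plus strand and held 6 CpGs at 88.6% and 92.7%. For Zfp42 (Rex1), a marker of pluripotent cells, the stretch at chr8:43307010-43307259 on the minus strand held 9 CpGs at 63.7% and 57.2%. These promoters were methylated at both ages, and the Zfp42 promoter was the only one of the 4 with a lower level in old cells by more than 1 point.

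Over the full 300-base promoters (250 bases before and 50 after the start), Zfp genes of both classes were nearly unmethylated at both ages. RefSeq promoters matched 301 of the 360 genes by symbol, and 275 had at least 6 listed positions. The median level in young and old cells was 3.47% and 3.43% over 166 clustered genes, 2.78% and 2.77% over 109 single genes, and 3.02% and 2.93% over 12797 protein-coding genes. Of these promoters, clustered ones had a median of 12 CpGs, single ones 18 and all genes 19. Their median GC content was 53.8%, 58.7% and 60%. Without the minimum of 6 positions the median was 11 CpGs over 180 clustered, 17 over 121 single and 14 over all 16456 promoters. Single promoters thus held fewer CpGs than those of all genes only with that minimum. With it, 89.8% of the clustered and 89.9% of the single promoters were below 10% in young cells, against 77.4% over all genes. The share above 50% was 5.42% of clustered, 8.26% of single and 13.2% of all promoters.

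The difference from other genes lay in the promoters with few CpGs. Among promoters with at most 7 CpGs, 20 of 31 clustered Zfp genes (64.5%) and 7 of 15 single ones (46.7%) were below 10% in young cells, against 17.2% of 2471 such promoters over all genes. The median level in this class was 5.41% for clustered, 67.6% for single and 53.1% for all genes. The share above 50% was 25.8% of clustered, 53.3% of single and 52.7% of all promoters. The minimum of 6 listed positions kept unequal parts of this class, which held 45 clustered, 25 single and 6099 promoters over all genes. Without the chromosome 4 cluster from Zfp978 to Zfp933, 20 of 28 clustered promoters (71.4%) were below 10%. From 8 to 15 CpGs the shares below 10% were 94.4%, 92.3% and 73.8%, and from 16 CpGs upward they were at least 95.9% in both Zfp classes and over all genes. No test was made of these shares, and the small number of single genes in the poorest class limits them.

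**Figure D1:**
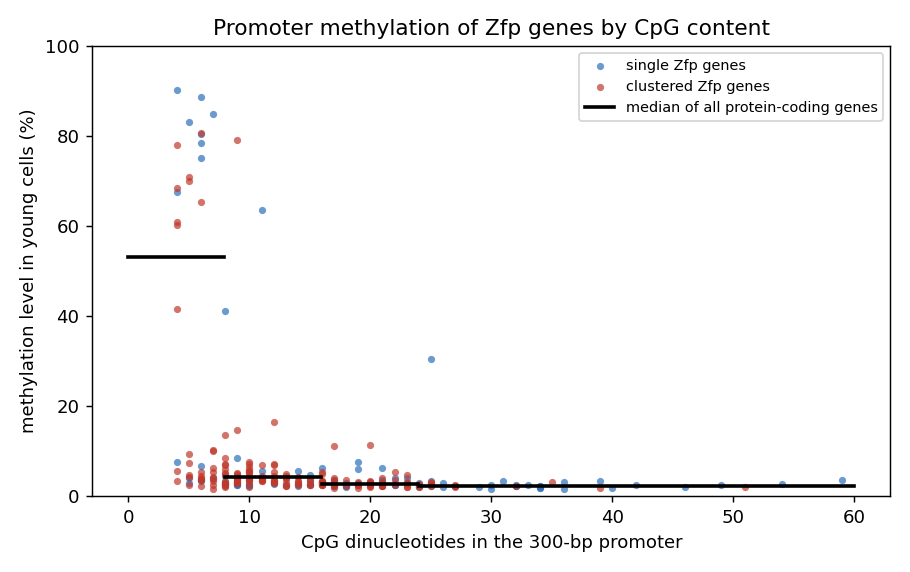
Methylation level in young cells (%) of each Zfp promoter of 300 bases (y axis) against its number of CpG dinucleotides (x axis), with clustered genes in red, single genes in blue and the median of all protein-coding genes in each CpG class as a black line. Most Zfp promoters with at most 7 CpGs lie well below the line at 53.1%, and nearly all methylated ones have few CpGs.

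The 18 Zfp promoters above 50% in young cells were 9 clustered and 9 single genes. In 15 of them every listed start with at least 6 positions was above 50%. Of these 15, only Zfp239 had another listed start with at least 6 positions, at 77.2% in young cells. For the rest of the 15 no other start could be compared. The remaining genes each had another start that was unmethylated. For Zfp57 the most upstream start stood at 88.6% and a start 1362 bases downstream at 3.36%. For Zfp708, whose protein binds retroelements, the start at the gene's end stood at 79.1% and another 16431 bases away at 3.69%. Zfp217, which encodes a transcriptional regulator amplified in cancers, stood at 84.9% and 3.79% at its 2 listed starts. The other methylated promoters belonged to Zfp345, Zfp600, Zfp993, Zfp988, Zfp985, Zfp979, Zfp239 and Zfp977 among clustered genes and to Zfp541, Zfp936, Zfp42, Zfp616, Zfp652, Zfp640 and Zfp957 among single ones. All but Zfp42, with 11 CpGs, held at most 6 CpGs, and 5 lay in neighbouring clusters at the distal end of chromosome 4.

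Short motifs were searched on both strands of the 300-base promoters, which could overlap one another. The GC box GGGCGG was in 37.8% of clustered, 52.9% of single and 47.3% of all 16456 promoters. The CCAAT box was in 53.3%, 45.5% and 39.1%, and ATGGCGG, the core bound by YY1, in 9.44%, 10.7% and 5.51%. TATAAA was less frequent in Zfp promoters, at 4.44% and 8.26% against 13.5% over all genes. TGCCGC, the core bound by ZFP57 when methylated, was in 12.8%, 18.2% and 14.0%. These are matches of letters and not binding sites.

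The unmethylated stretch around the start was shorter at clustered genes. This stretch was measured as the run of listed positions below 20% on both sides of the start. It had a median length in young cells of 991.5 bp over 160 clustered genes, 1392.5 bp over 100 single genes and 1448 bp over all genes. In old cells the medians were 972, 1398 and 1451 bp, and the length was equal at both ages in 108 of the 160 clustered and 68 of the 100 single genes. Over clustered genes the stretch was longer where the promoter held more CpGs, and it was shorter than over single genes in each CpG class. With at most 7 CpGs the medians were 749 bp for clustered and 1306 bp for single genes, with 8 to 15 CpGs 874 and 1259 bp, with 16 to 23 CpGs 1143 and 1379 bp, and with at least 24 CpGs 1376 and 1614 bp. Over all genes the medians in these classes were 831, 1197, 1371 and 1672 bp. In the class with at most 7 CpGs only 27 of 45 clustered and 9 of 25 single genes had such a stretch, which limits those medians. The longest stretches all belonged to single genes with roles in development. They measured 5210 bp at Zfp536, 4682 bp at Zfp423 and 4063 bp at Zfp503 in young cells, and 4997, 4682 and 4119 bp in old cells.

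**Figure D2:**
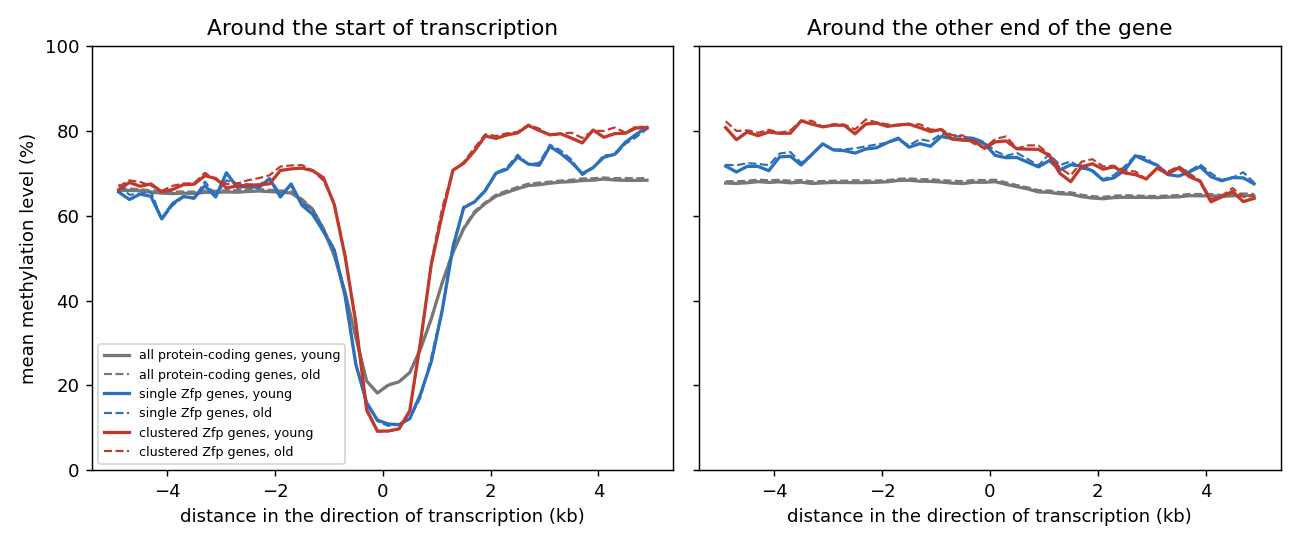
Mean methylation level (%) in bins of 200 bp against distance (kb, in the direction of transcription) from the start (left panel) and from the other end of the gene (right panel), for clustered Zfp genes (red), single Zfp genes (blue) and all protein-coding genes (grey), with young cells as solid and old cells as dashed lines. The dip at the start is narrower for clustered Zfp genes, and the lines for young and old cells nearly coincide.

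The profile around the start showed the same difference in width. In the first 200 bp after the start, the mean level in young cells was 9.24% at clustered genes, 10.9% at single genes and 20.05% over all genes. Between 1000 and 1200 bp after the start it was 60.2%, 37.5% and 44.1%, and between 2400 and 2600 bp 79.5%, 73.8% and 66.3%. Between 1000 and 800 bp before the start it was 62.6%, 51.9% and 50.6%. In these bins clustered Zfp genes thus had the lowest mean at the start and the highest mean on both sides of it. Further upstream the order of clustered and single genes varied, with 66.5% and 70.1% between 3000 and 2800 bp before the start. Further downstream their means met, at 80.7% and 80.8% between 4800 and 5000 bp after the start.

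The level of a gene end depended on the window. A gene end was taken as 1 kb on each side of an annotated end of the gene, and of each gene's ends the less methylated one (by the mean of both ages) was used. At least 10 positions were listed at an end of 350 genes, and the other 10 genes had no end that could be used. The median level in young and old cells was 13.2% and 12.8% at 203 clustered genes, 7.37% and 7.38% at 147 single genes, and 11.4% and 11.2% over 19588 genes of chromosomes 1 to 19. The mean in young cells was 21.8% for clustered and 18.7% for single genes, a difference of 3.08 points. With 500 bp on each side the sign turned, to 1.86 points lower at clustered genes (15.4% and 17.3%), and with 2000 bp the difference was 6.98 points. Clustered ends also held fewer positions, with a median of 92 against 138. In windows with 150 or more positions the medians were 5.19% for clustered and 4.39% for single genes, and with 100 to 149 positions 11.1% and 7.58%. The order turned with 50 to 99 positions, at 15.2% and 15.6%, and with 10 to 49 positions, at 62.1% and 63.7%.

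Some high end levels belonged to genes whose listed start lies elsewhere. The most upstream RefSeq start was over 1 kb from the gene's annotated end for 26 of 180 clustered and 12 of 121 single genes. Of the 20 clustered genes with an end above 50% and a measured promoter, 10 had a promoter below 10%, as did 2 of 11 single genes. Zfp790 had an end at 91.1% in young cells and a promoter at 2.48%, and Zfp595, with 88.2% and 5.79%, and Zfp229, with 87.9% and 7.22%, were alike. These were the 3 highest ends among clustered genes. The highest ends among single genes were those of Zfp57 at 80.4%, Zfp369 at 79.7% and Zfp640 at 79.5%. The lowest ends were at Zfp786 (2.23%), Zfp398 (2.68%) and Zfp553 (3.08%) among clustered genes and at Zfp654 (2.36%), Zfp395 (2.41%) and Zfp367 (2.43%) among single ones. Over genes with a start within 1 kb of their end the medians were 11.6% (151 clustered genes) and 7.32% (104 single genes).

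The 3′ ends, where the strand was known, were highly methylated. Their median in young and old cells was 83.5% and 84.7% at 140 clustered genes, 81.9% and 82.2% at 101 single genes, and 72.6% and 73.2% at 14635 genes. Zfp genes of both classes were thus about 10 points above the median of all genes at this end. Levels over the gene span, which could be used for all but 5 genes, were closer to other genes. The median in young cells was 63.7% over 206 clustered genes, 60.7% over 149 single genes and 61.8% over all genes. When positions rather than genes were weighted equally, the span level was 62.2% for clustered and 62.5% for single genes, so the direction of that difference rested on the weighting.

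The genes of genome defence and the early embryo were mixed. Of the 8 examined, 4 were nearly unmethylated at both ages at their most upstream start or, without a promoter entry, their less methylated end. Zfp809, which recognises a retroviral primer binding site, had a promoter at 3.48% in young and 3.39% in old cells. Zfp932, which binds endogenous retroviruses, stood at 3.67% and 3.93%, and the Zfp445 promoter at 3.61% and 3.07%. Zfp568, which represses a placental promoter of Igf2, had its less methylated end at 3.54% and 2.89%. The other 4 were methylated there. They were Zfp57, Zfp42 and Zfp708, described above, and Zfp352, a gene known from the early embryo, with 62.9% and 61.6% at its less methylated end. Zfp57 and Zfp708 each also had an unmethylated start further downstream, at 3.36% and 3.69% in young cells. The partners of KRAB proteins were examined as a list of 15 corepressors and maintenance factors. In 14 of them the less methylated end stood between 2.23% (Trim28) and 16.1% (Cbx1) in young cells. The exception was Dnmt1, the maintenance DNA methyltransferase, with 73.4% and 72.8%. This value is that of an annotated end. The listed promoter of Dnmt1 was also methylated, at 88.3% in young and 85.1% in old cells. Other starts within Dnmt1 were not measured separately.

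Genes for RNA and protein turnover had similarly low promoters. Zfp598, whose protein senses collided ribosomes, had levels of 2.06% in young and 2.10% in old cells, Zfp622, a factor of large ribosomal subunit assembly, had 2.25% and 2.50%, and Zfp91, a ubiquitin ligase, 3.00% and 2.89%. Zfp106 (an RNA-binding protein), Zfp207 (a spindle protein), Zfp326 (an RNA-processing factor), Zfp451 (a SUMO ligase) and Zfp638 lay between 2.20% and 2.82% in young cells. The span of Zfp36 was itself nearly unmethylated, at 9.19% in young and 9.16% in old cells with 158 positions, the lowest span of any Zfp gene.

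Developmental regulators were also low at their starts, with a few higher values. The promoter of Zfp423, which commits cells to the fat lineage, had levels of 6.19% in young and 5.01% in old cells, and that of Zfp503, a regulator of the developing brain, 7.71% and 6.23%. Zfp281 and Zfp148, both widely expressed transcription factors, stood at 2.38% and 2.22% in young cells, and Zfp143, which activates many promoters, at 2.70%. Zfp521, Zfp703 and Zfp462 had no promoter entry and stood at 3.64%, 3.30% and 6.25% at their less methylated ends. Zfp410, which activates the chromatin remodeller gene Chd4, stood there at 4.28%. Zfp750, a regulator of epidermal differentiation, was methylated at its less methylated end, with 71.2% in young and 69.1% in old cells. Zfp217, described above, was also methylated at its most upstream start, at 84.9% in young and 88.9% in old cells. Its other listed start stood at 3.79% in young cells. Promoters of Zfp219, Zfp296, Zfp335, Zfp64, Zfp365, Zfp697, Zfp277 and Zfp637 lay between 2.03% (Zfp637) and 8.51% (Zfp219) in young cells.

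Old and young cells had almost the same levels at Zfp gene ends. The less methylated end was higher in old cells in 88 of 203 clustered genes (43.3%), 75 of 147 single genes (51.0%) and 46.4% of all genes. The median difference of old minus young was -0.12 points for clustered, 0.014 points for single and -0.046 points for all genes. It was under 2 points in size in 86.7% of clustered, 87.8% of single and 81.6% of all genes. Over spans old cells were slightly more methylated, in 157 of 206 clustered genes (76.2%), 112 of 149 single genes (75.2%) and 72.2% of all genes, with median differences of 0.41, 0.37 and 0.39 points. The median differences over spans were thus within 0.05 points of one another.

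**Figure D3:**
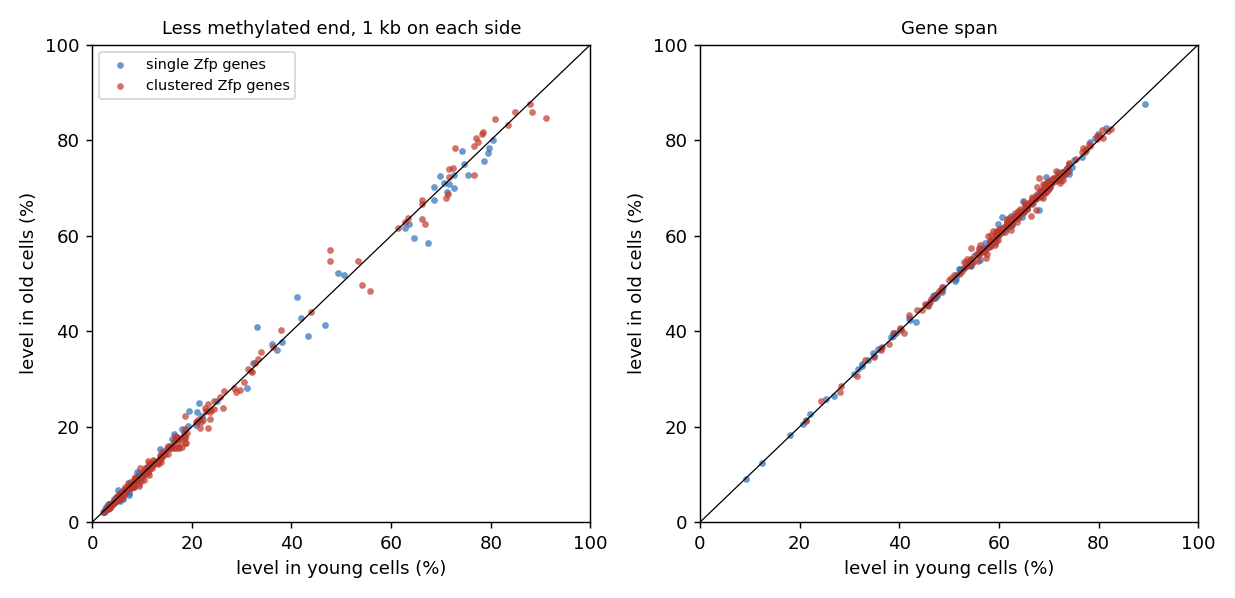
Methylation level in old cells (%, y axis) against young cells (%, x axis) of each clustered (red) and single (blue) Zfp gene, at the less methylated end (left) and over the span (right), with the line of equal levels. Points lie along the line, with the widest scatter at methylated ends.

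No Zfp end or span passed the test of age based on the median p-value. For each end and span, 2 times the median of the authors' p-values over its positions was taken as a bound on the feature's p and adjusted by Benjamini-Hochberg over all protein-coding genes. In this test 0 of 366 clustered ends, 0 of 275 single ends, 0 of 206 clustered spans and 0 of 149 single spans passed an adjusted p of 0.05. Over all genes the share called was 0% of 38806 ends and 0% of 20479 spans. The bound lay below its largest possible value at 13.1% of clustered, 8.73% of single and 13.7% of all ends. Over spans these shares were 0.485%, 1.34% and 4.30%. Few features of any gene could thus be called, and the lack of calls does not set Zfp genes apart. At an unadjusted p of 0.05 the count was 0 for Zfp genes, 14 for all ends and 2 for all spans. A Simes combination, which a few small p-values can carry, called 125 of 996 ends and spans of Zfp genes (12.6%) and 7211 of 59285 over all genes (12.2%). Since the table holds no value per animal, neither result could be set against the spread between mice.

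The smallest values of this bound belonged to ends with few positions or intermediate levels, and each had an adjusted p of 1. The 3′ end of Zfp281 (chr1:136629391-136631391) had levels of 65.9% in young and 76.4% in old cells. It held 10 listed positions and had the smallest bound, 0.228. The 5′ end of Zfp536, a repressor of neuronal differentiation (chr7:37773039-37775039), had levels of 33.2% in young and 41.0% in old cells, with 110 of its 114 positions higher in old cells. The most upstream listed start of Zfp536 lay 4287 bp from the gene's end, with a promoter at 2.52% and 2.81%. One end of Zfp87 stood at 88.1% and 92.8%. With lower levels in old cells, the 3′ end of Zfp458 stood at 62.6% and 53.8%, an end of Zfp114 at 69.2% and 62.7%, and the 3′ end of Zfp658 at 91.7% and 82.1%. The 5′ end of Zfp458 differed in the other direction, at 47.7% in young and 56.9% in old cells. None of these differences passed the test.

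Ranked by size, the differences at less methylated ends stayed under 10 points. The lower levels in old cells were led by Zfp558 (67.3% and 58.5% over 12 positions), Zfp991 (55.8% and 48.4%), Zfp790 (91.1% and 84.7%), Zfp341 (46.7% and 41.3%) and Zfp980 (64.7% and 59.4%). The higher ones were led by Zfp458, Zfp536, Zfp397 (47.8% and 54.6%), Zfp469 (41.0% and 47.2%) and Zfp972 (72.8% and 78.4%). All these ends were at least 33.2% methylated in young cells. For Zfp458, Zfp536, Zfp558, Zfp790 and Zfp341 the most upstream listed start lay over 1 kb from the annotated 5′ end. Promoters at those starts stood between 2.34% and 5.12% in young and between 2.34% and 4.43% in old cells. Spans differed by less than 5 points. Zfp977 (68.1% and 72.1%), Zfp990, Zfp759, Zfp640 and Zfp941 had the largest positive span differences, and Zfp352 (68.0% and 65.3%), Zfp991, Zfp493, Zfp595 and Zfp781 the largest negative ones.

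Single positions past the authors' threshold were few. In the authors' deposited table, an FDR under 0.05 was reached by 0.233% of the 32026463 positions of chromosomes 1 to 19, with 0.130% higher and 0.103% lower in old cells. Of 71768 positions in clustered Zfp spans, 129 (0.180%) passed, 73 higher and 56 lower in old cells. Of 136303 positions in single spans, 137 (0.101%) passed, 80 higher and 57 lower, and the share over all gene spans was 0.158%. Gene ends held fewer, with 17 of 25080 positions (0.0678%) at clustered and 15 of 27689 (0.0542%) at single genes, against 0.0434% at the ends of all genes. Among the calls in clustered spans 92.2% lay at the most common dispersion of either age (0.0438 in young, 0.0434 in old), which 21.6% of all positions in those spans had. The same value was found at 92.0% of the calls in single spans, and its part in the calls was not tested. Within 1 kb of all Zfp genes 280 positions passed, of which 21 remained without positions at these dispersions.

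Counting a position for each gene it lies in, those calls were spread over 72 clustered (34.6%) and 63 single genes (41.4%), against 36.3% of 20661 protein-coding genes of any length. At least 3 were held by 14 clustered (6.73%) and 19 single genes (12.5%), against 13.0% of all genes. Zfp978 held the most (13 positions, 9 higher and 4 lower in old cells), followed by Zfp407 (11), Zfp993 (9), Zfp536 (8) and Zfp438 (7). Both directions occurred within each of these genes. At 3 CpGs, all in clustered genes, both cytosines of the pair passed. They made up 6 of the 129 calls in clustered spans (4.65%), against 0 of 137 in single spans and 2.45% of the calls in all gene spans. In the authors' deposited table these stood in young and old cells at 78.6% and 95.3% in Zfp790, 82.4% and 40.9% in Zfp947, and 18.2% and 61.8% in Zfp978. A position of Zfp42 (chromosome 8, 43301611) stood at 23.03% and 63.3% and passed on 1 strand only. Where at least 6 positions with an unadjusted p under 0.01 lay within 100 bp of one another, the run was also recorded. There were 4 runs, with levels in young and old cells of 30.6% and 13.6% in Zfp217 over 7 positions, 79.2% and 94.4% in Zfp27, 68.3% and 89.7% in Zfp365 and 50.6% and 30.4% in Zfp608. No position of these runs passed the FDR. All 7 positions in Zfp217 had the most common dispersion of either age, against 1 in Zfp27, 1 in Zfp365 and 2 in Zfp608. The runs were not set against a count over all genes, so their number is not a result about Zfp genes.

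The 15 clusters of at least 5 genes differed more from one another at their ends than over their length, where the mean over all positions ran from 51.1% to 70.2% in young cells. The chromosome 6 cluster from Zfp786 to Zfp746 (7 genes) had a median end level of 5.71% in young cells, and the chromosome 7 cluster from Zfp84 to Zfp146 (15 genes) 9.35%. The chromosome 17 cluster from Zfp677 to Zfp943 (13 genes) had levels of 9.75% in young and 8.64% in old cells, while the chromosome 13 cluster from Zfp712 to Zfp748 (14 genes) had 22.7% and 23.9%. The chromosome 7 cluster from Zfp180 to Zfp94 (10 genes) had ends at 33.8% and promoters at 3.97%. The chromosome 4 cluster from Zfp978 to Zfp933 (9 genes) was the most methylated, with a median of 55.8% in young and 48.4% in old cells over 7 measured ends. The gene Zfp991 was the median at both ages, and the median of the differences within genes was 0.035 points. Its 6 promoters with enough positions fell into both extremes. Zfp988, Zfp985 and Zfp979 had promoters at 77.9%, 65.3% and 69.99% in young cells, and Zfp982, Zfp984 and Zfp933 at 5.29%, 4.99% and 4.18%. Of the CpG cytosines in its promoters 94.2% were listed in the table, against 96.1% over clustered Zfp genes.

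Averaged over all positions between the first and last gene, all 15 of these clusters were higher in old cells, by 0.036 to 0.84 points. The median end level was lower in old cells in 10 of the 15, and the median of the differences of single genes was negative in 7. Counting clusters of any size, 45 of 50 were higher in old cells over all positions, in a genome where spans of all genes were mostly higher too.

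**Figure D4:**
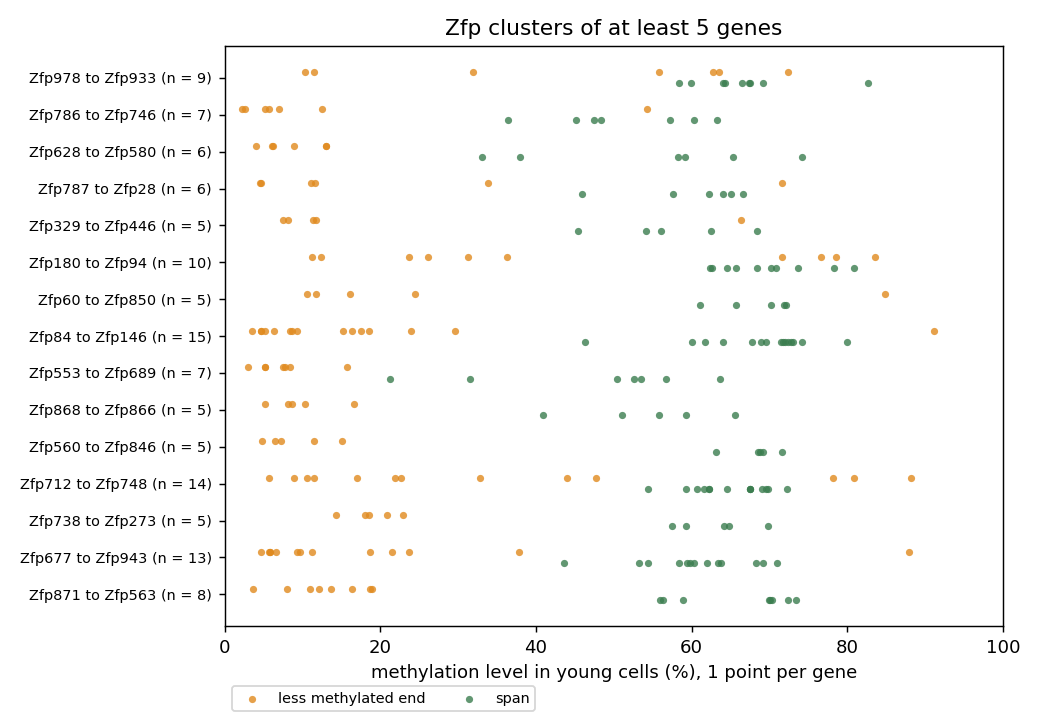
Methylation level in young cells (%, x axis) of the less methylated end (orange) and the span (green) of each gene in the Zfp clusters of at least 5 genes (y axis, by first and last gene). The ends of the chromosome 4 cluster from Zfp978 to Zfp933 have a median of 55.8%, and the cluster medians differ less over spans than at ends.

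Dispersion over spans was lower for clustered genes. The median phi in young and old cells was 0.0458 and 0.0456 for clustered, 0.0476 and 0.0476 for single and 0.0480 and 0.0484 for all genes. Within spans of 60% to 70% it was 0.0460, 0.0476 and 0.0484 in young cells, and clustered genes had the lowest median in each of 4 classes of level. In spans with under 10 positions per kb the order turned, at 0.0453 for clustered and 0.0449 for single genes. At the less methylated ends the medians were alike, at 0.0465 for clustered, 0.0463 for single and 0.0464 for all genes in young cells. The highest values at ends were those of Zfp616 (0.0994 in young and 0.0897 in old cells), Zfp180 (0.0961 and 0.0918) and Zfp469 (0.0744 and 0.0662). The largest positive differences of old minus young dispersion at the less methylated end were in Zfp936 (0.0509 and 0.0638), Zfp648 (0.0454 and 0.0577) and Zfp879 (0.0479 and 0.0594). The largest negative ones were in Zfp455 (0.0644 and 0.0536), Zfp616 and Zfp575 (0.0681 and 0.0588). The differences have no test in the table.

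**Figure D5:**
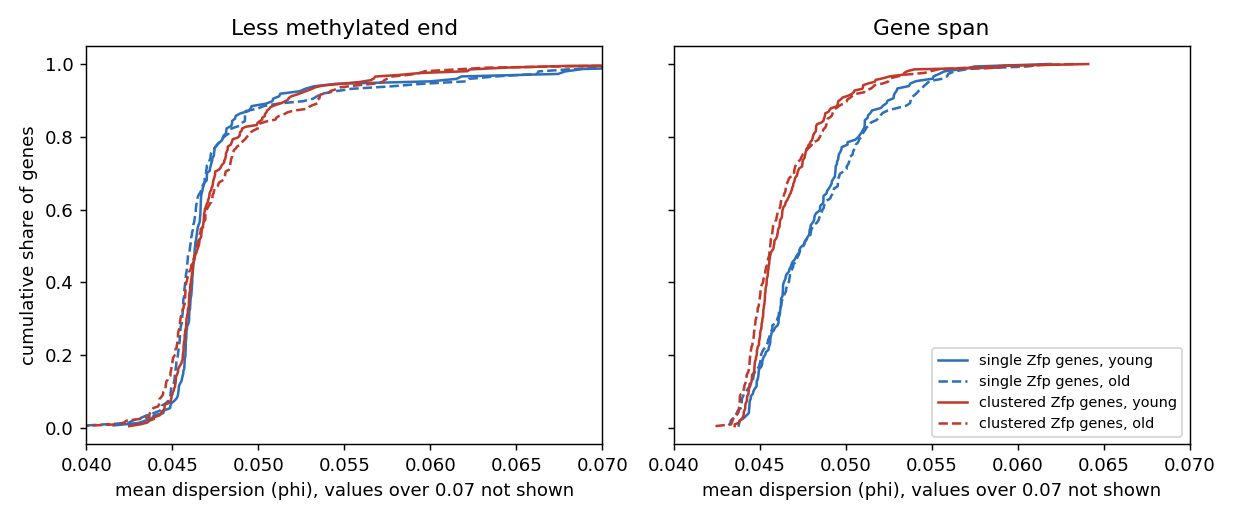
Cumulative share of Zfp genes (y axis) against mean dispersion phi (x axis, values over 0.07 not shown) at the less methylated end (left) and over the span (right), for clustered (red) and single (blue) genes in young (solid) and old (dashed) cells. The curves of clustered genes lie to the left over spans and overlap those of single genes at ends.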

How the data were processed

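Whole-genome bisulfite libraries of muscle stem cells from 4 young and 4 old mice were assigned to an age group from the labels. The submitters' processing notes name Trim Galore, Bismark, edgeR and the builds mm10 and GRCm38, without saying which did what. Per the file headers, the authors' table gives per position a level for each age (mu, a fraction from 0 to 1), a dispersion for each age (phi), a p-value and its FDR. Which tool produced the smoothed levels and p-values: not given in the sources used here. Smoothing makes neighbouring positions dependent and flattens narrow differences. No per-animal values or counts come with the table, so read-count tests were replaced by 2 times the median of the deposited p-values per feature. This was adjusted over features with at least 10 positions. The step was tested only on simulated shifts larger than any difference at the less methylated Zfp ends. Whether it could call differences of the size seen here was not tested.

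Each feature's level is the unweighted mean over its positions, in percent (Python 3.11.15, numpy 2.4.6, pandas 2.3.3). Coordinates, symbols and promoter sequences came from RefSeq tables of GRCm38.p6 (mm10 is the same assembly without patches), and the listed CpG positions fell on 97.0% of the CpGs in the promoter sequences. Windows at 26 members' ends overlapped another member's. Protein sequences were not used here. Members, lists and rules were chosen with earlier results of these data known. Named genes were fixed functional groups and the extremes of level, age difference, p and dispersion, and clusters of at least 5. Genes named for methylated promoters, other starts, single positions or runs, and the printed promoters, were chosen after their values were seen. Some genes are not reported here.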

Additional observations from a re-analysis of the deposited data

How the results depend on the processing

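Values are clustered minus single Zfp genes. The mean level at less methylated ends, 3.08 points, was -1.86 with 500-bp windows and -2.08 in 300-base promoters. It was 6.98 with 2000-bp windows, 1.66 with at least 20 positions, 2.01 without the most common dispersion values, 1.58 with 1 position per CpG, 5.87 as medians and 2.02 for starts within 1 kb of the gene end. The age difference at ends, -0.042 points, was 0.11 with 2000-bp windows, 0.096 with at least 5 positions, 0.056 with neighbours of any Zfp symbol, 0.076 without the common dispersion values, 0.026 at 5′ ends and 0.065 in promoters. It was -0.20 with 20 positions, -0.072 and -0.15 with neighbours within 50 and 250 kb, -0.091 with 1 position per CpG, -0.17 with positions pooled, -0.13 as medians, -0.014 without the chromosome 4 cluster and -0.015 for near starts. End dispersion, -0.00015, was -0.0013 with 500-bp windows, -0.00026 with 5 and -0.00040 with 20 positions, -0.00028 with neighbours within 50 kb and -0.00031 without the chromosome 4 cluster. It was 0.00015 with any Zfp symbol, 0.00042 with 1 position per CpG, 0.00047 pooled, 0.00021 as medians, 0.00038 in promoters and 0.00057 for near starts. Neither the age nor the dispersion difference at ends therefore kept a direction. The span level, 4.43 points, was -0.25 pooled, and the span age difference, 0.079, was 0.0039 pooled and 0.037 as medians. Span dispersion kept its direction and stayed within 1.5 times its value in all 10 alternatives. The count of called features, 0, was 125 by Simes. Positions past the FDR, 280 within 1 kb of a member, were 21 without the common dispersion values and 178 with 1 position per CpG. The share of CpG-poor promoters below 10%, 17.8 points apart, was 29.5 with at least 10 positions. Other alternatives moved no value beyond 1.5 times, and the causes were not tested. Medians, promoters, 5′ ends, near starts, the removed cluster, the promoter minimum and the limits of 10% and 30% for the unmethylated stretch were chosen after seeing the data. No paired analysis was possible because the table gives 1 value per age group, and for the same reason no animal could be left out. Depth limits are unknown without read counts.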
